A study of Mus musculus with 12 samples.

Results

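The respiratory chain is built from 2 genomes, and 106 of the 22564 genes in the mRNA table of this series belong to it by name. They are all genes whose symbol starts with mt-, Nduf, Uqcr, Atp5 or Cox4 to Cox8, together with Sdha, Sdhb, Sdhc and Sdhd. The mitochondrial chromosome encodes 13 of them and nuclear chromosomes encode 93. By their names the 93 include Atp5s and Atp5sl, which are not subunits of complex V, and the pseudogene Atp5l-ps1. The measured tissue was the basolateral amygdala, a region needed for learned fear, dissected from coronal brain sections of male C57BL/6J mice aged 10 weeks, with 3 mice and 3 libraries in each of 4 groups. RE mice were fear conditioned and later heard the tone once as a reminder before extinction. E mice were conditioned and then extinguished with repeated tones alone, without the reminder. F mice received tone and foot shock pairings only and were sampled after conditioning. Control mice went through the F procedure with no shock and were sampled at the time of the F mice. Tissue of E and RE mice was taken at the end of extinction, a later day than that of control and F mice, and between either of them and control the training and the day cannot be told apart. The labels name no transgene, and the dissected block held whole tissue with neurons, glia and vessels.

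Complexes I to IV pass electrons along the inner mitochondrial membrane to oxygen, and complexes I, III and IV pump protons as they do so. Complex V, the ATP synthase, uses the proton gradient to make ATP, on which neurons depend for restoring ion gradients after synaptic activity. The mitochondrial chromosome is transcribed as long RNAs from both strands, the heavy-strand transcript carrying nearly all of its protein-coding genes and the light-strand transcript only mt-Nd6. Each long RNA is then cut at transfer RNAs into messages, and mt-Atp8 with mt-Atp6, and mt-Nd4l with mt-Nd4, remain joined as pairs with overlapping reading frames. Nuclear genes encode all other subunits, including all 4 of complex II, and factors such as NRF1 and the ETS family protein GABP are known to bind the promoters of many of them.

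A stretch of the nuclear genome holds a near-identical copy of part of the mitochondrial chromosome, with bases of 8 mitochondrial members. Whether the copy affected their values was not tested. In GRCm38, chr1:24611535-24616188, minus strand, matched bases 6390 to 11042 of the mitochondrial chromosome with 99.936% identity over 4654 aligned columns (2 substitutions and 1 gap, positions counted on the mitochondrial chromosome). The substitutions were A6393T, in mt-Co1 near the end of the match, and T9461C, in mt-Nd3. The copy contained all bases of mt-Co2, mt-Atp8, mt-Atp6, mt-Co3, mt-Nd3 and mt-Nd4l, 63.6% of mt-Nd4 and 31.3% of mt-Co1, and no base of mt-Nd1, mt-Nd2, mt-Nd5, mt-Nd6 or mt-Cytb. The following stretches are shown because a read from the first 2 pairs matches both places without a difference, and from the last with 1. The first pair is the part that mt-Atp8 and mt-Atp6 share (bases 7927 to 7969), the next pair the start of mt-Co2 (bases 7013 to 7072), and the last pair surrounds T9461C, with the differing base in capitals.
mt-Atp8 and mt-Atp6 overlap, mitochondrial: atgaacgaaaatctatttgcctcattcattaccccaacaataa
mt-Atp8 and mt-Atp6 overlap, chromosome 1 copy (chr1:24614609-24614651, minus strand): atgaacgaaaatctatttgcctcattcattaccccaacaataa
mt-Co2 start, mitochondrial: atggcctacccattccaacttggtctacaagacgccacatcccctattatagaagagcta
mt-Co2 start, chromosome 1 copy (chr1:24615506-24615565, minus strand): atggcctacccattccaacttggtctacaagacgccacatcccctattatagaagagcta
mt-Nd3, mitochondrial (bases 9441 to 9481): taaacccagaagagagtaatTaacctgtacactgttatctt
mt-Nd3, chromosome 1 copy (chr1:24613097-24613137, minus strand): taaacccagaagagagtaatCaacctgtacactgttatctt

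Levels were deposited as FPKM, fragments scaled to the length of the transcript and to the mapped total, so that genes may be compared per length. Depth ran from 7653904 recovered mRNA fragments in E 1 to 23167339 in control 1. The mitochondrial members took between 1.63% (F 1) and 3.92% (control 1) of these fragments, and the nuclear members between 0.524% (F 2) and 0.622% (E 2). The mitochondrial share leaves out fragments assigned to lncRNA entries at the same loci, so its order of libraries depends on that assignment. DQ539915, an lncRNA entry at the mt-Co1 locus, held 314816 scaled fragments in RE 3 and 5862 in control 1. There mt-Co1 itself held 82.1 and 209322. Of the 12 libraries, RE 4, E 2, F 1 and control 2 stood apart from the other 8, 1 in each group, along the main axis of variation in lncRNA levels (18.4% of the variance). Genes listed as markers of basolateral amygdala principal neurons were present in each library, with a summed level over 8 genes of 777 to 1308 FPKM. Camk2a (431 to 696 FPKM) and Slc17a7 (162 to 388 FPKM) made most of this sum, and Rspo2 lay at 0.945 to 4.43 FPKM. Here and below, sums of this list mainly follow those 2 genes and do not by themselves identify the cells. Summed markers of striatal medium spiny neurons, which lie next to the amygdala, ran from 232 FPKM in control 2 to 1138 FPKM in control 1. In bulk tissue, fewer cells of a type and less RNA per cell cannot be told apart.

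Among mitochondrial members, the 4 heavy-strand genes with no base in the copy shared a pattern, and in each group their lowest library was 1 of the 4 that stood apart. mt-Nd1, a core membrane subunit of complex I, had 3476, 1309.7 and 3586 FPKM in RE 3, RE 4 and RE 5, 3714, 1606 and 2793 FPKM in E 1, E 2 and E 3, 1381, 2678 and 2945 FPKM in F 1, F 2 and F 3, and 4029, 1559 and 4635 FPKM in control 1, control 2 and control 3. RE 4, E 2, F 1 and control 2 were the low ones, and the groups overlapped. mt-Cytb, the only mitochondrially encoded subunit of complex III, had 3396, 1340.3 and 4023 FPKM in RE libraries, 3831, 1631 and 2827 FPKM in E libraries, 1239, 2539 and 3041 FPKM in F libraries, and 4412, 1434 and 4384 FPKM in control libraries, in the same order. mt-Nd2 and mt-Nd5, also core subunits of complex I, had 801 to 2722 FPKM and 548 to 1962 FPKM over the 12 libraries. For these genes the highest library was 3.40 to 3.58 times the lowest. In the 4 libraries that stood apart against the other 8, mt-Nd1 lay at 1309.7 to 1606 against 2678 to 4635 FPKM, and the values of mt-Nd2, mt-Nd5 and mt-Cytb did not overlap either. The differences of these 4 genes were -1.23 to -1.31 on the log2(FPKM + 0.1) scale and are a description of libraries, not of training groups.

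mt-Nd6, a complex I subunit and the only light-strand member, ran the other way. It had 621, 735 and 724 FPKM in RE libraries, 711, 1272 and 653 FPKM in E libraries, 1039, 645 and 605 FPKM in F libraries, and 590.0, 689 and 509.8 FPKM in control libraries. The ratio of mt-Nd6 to mt-Nd5 was 1.17 in RE 4, 2.00 in E 2, 1.90 in F 1 and 1.01 in control 2. In the other 8 libraries this ratio was between 0.26 (control 3) and 0.541 (F 2), without overlap with those 4. The values of mt-Nd5 alone did not overlap between them either, whereas those of mt-Nd6 alone did (689 to 1272 against 509.8 to 724 FPKM). In the 8 libraries left without them, mt-Nd6 differed from control by 0.29 (RE), 0.31 (E) and 0.19 (F) on the log2 scale, and none of these passed the test.

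**Figure D1:**
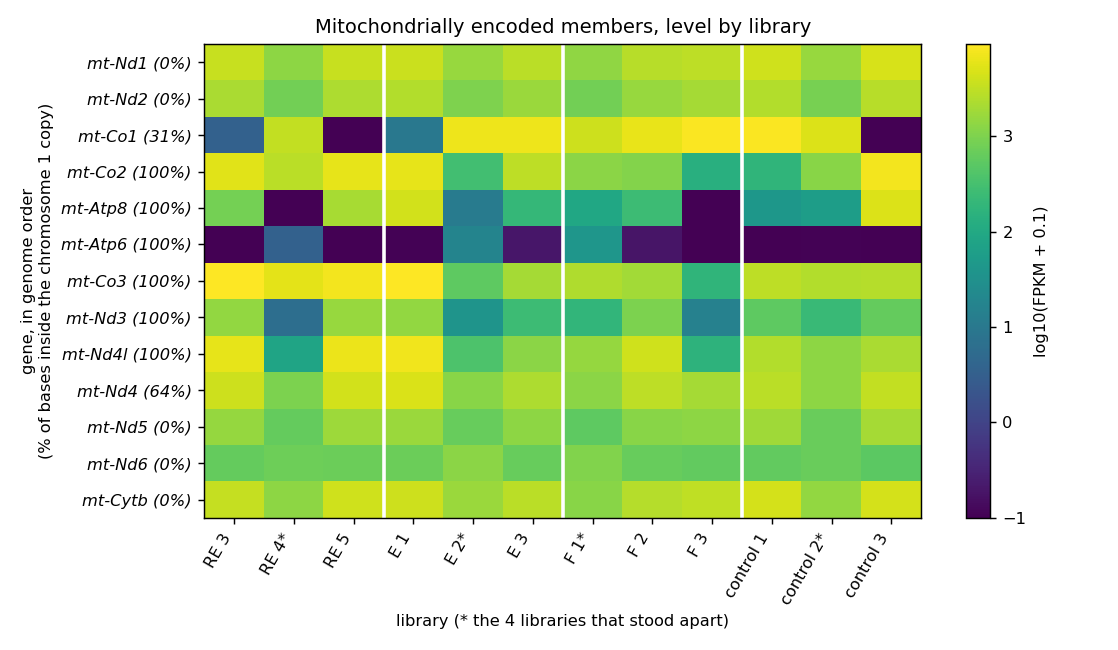
Level of the 13 mitochondrial members (rows, in genome order, with the percent of their bases inside the chromosome 1 copy) in the 12 libraries (columns, RE, E, F and control from left to right), as log10(FPKM + 0.1). Rows with 0% are even apart from the 4 starred libraries, whereas mt-Co1, mt-Atp8 and mt-Atp6 jump within groups between near 0 and values such as 8783 (mt-Co1) and 5009.8 FPKM (mt-Atp8).

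Of the 8 members with bases in the copy, mt-Nd4 ranged 4.97-fold over the 12 libraries and the other 7 at least 52.6-fold, with wide spreads within groups. mt-Co1, the catalytic subunit of complex IV, was listed at 3.45, 3181 and 0.00204 FPKM in RE libraries, 9.76, 6832 and 7016 FPKM in E libraries, 3955, 6348 and 8681 FPKM in F libraries, and 8783, 4987 and 0.00187 FPKM in control libraries. Thus 4 libraries, RE 3, RE 5, E 1 and control 3, were near 0 for a gene that every neuron uses, and none of these 4 is among the libraries that stood apart. The same 4 libraries held the 4 highest values of mt-Co2, a copper-binding subunit of complex IV. These were 5632 (RE 3), 5939 (RE 5), 6023 (E 1) and 7670.0 FPKM (control 3). In the other 8 libraries mt-Co2 was between 134 (F 3) and 3002 FPKM (E 3). They also held the 4 highest values of mt-Atp8, a small membrane subunit of complex V, at 835, 2105, 4220.3 and 5009.8 FPKM, while the others ran from near 0 (RE 4, F 3) to 259 FPKM (F 2).

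mt-Atp6, the proton channel subunit of complex V, was listed under 1 FPKM in 9 of 12 libraries, although it shares its message with mt-Atp8. Its 3 higher values were 3.42 FPKM in RE 4, 17.2 FPKM in E 2 and 39.9 FPKM in F 1, all libraries that stood apart, and control 2 was at 0.00818 FPKM. mt-Co3, the third core subunit of complex IV, had 9269, 5873 and 7731 FPKM in RE libraries, 9110.4, 552 and 2003 FPKM in E libraries, 2371, 1923 and 176 FPKM in F libraries, and 3009, 2466 and 2604 FPKM in control libraries. All 3 RE libraries exceeded all 3 control libraries and all 3 F libraries were below them, the only mitochondrial member without overlap in either comparison, yet neither passed the test (RE against control 1.48 ± 0.99, F against control -1.53 ± 0.99, log2 fold change ± SE). Of all genes, 12.7% did not overlap in RE against control and 12.5% in F against control. Summed over all plus-strand features listed at its locus, the groups overlapped in both comparisons. These sums were 119276 to 302846 scaled fragments in RE, 45596 to 114476 in F and 72521 to 187638 in control libraries. mt-Nd3 ranged from 6.09 FPKM (RE 4) to 1555 FPKM (RE 5) and mt-Nd4l from 79.2 FPKM (RE 4) to 7144 FPKM (E 1), both complex I subunits.

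Features of the lncRNA table at the same positions were high in the libraries where mt-Co1 was near 0. DQ539915, a plus-strand entry listed at the mt-Co1 locus, held 314816 and 314205 scaled fragments in RE 3 and RE 5, 316265 in E 1 and 307136 in control 3, where mt-Co1 held 0.0443 to 232. In F 3 and control 1, where mt-Co1 was highest, DQ539915 held 4754 and 5862. Summed over both entries, the locus had 207088 to 314898 scaled fragments in RE libraries, 175856 to 316497 in E libraries, 154396 to 211437 in F libraries and 172993 to 307136 in control libraries. The sum thus varied 2.05-fold over all 12, and its differences between groups did not pass the test (F against control -0.29 ± 0.34, E against control 0.05 ± 0.34, RE against control 0.26 ± 0.34, RE against E 0.22 ± 0.34). At the locus from mt-Atp8 to mt-Nd4 the lncRNA table listed Atpase6, with 1683 (F 3) to 112268 (E 1) fragments. Adding it widened the range from 7.06-fold to 9.43-fold. At the mt-Co2 locus the range was 56.5-fold with and without the lncRNA entry listed there. Features listed over the chromosome 1 copy held 15849 fragments in F 3 and 773 to 3208 in the other 11. How fragments that match several entries were divided was not tested.

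**Figure D2:**
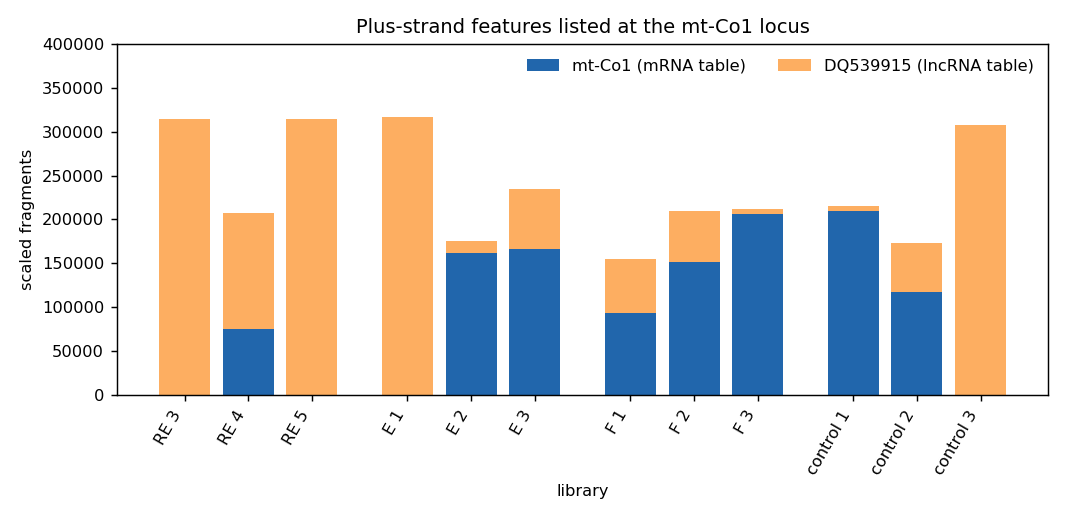
Scaled fragments (y axis from 0) assigned to mt-Co1 and to DQ539915 at the same locus in each library, with RE, E, F and control from left to right. In RE 3, RE 5, E 1 and control 3 nearly the whole bar belongs to DQ539915, and the bar heights differ by 2.05-fold at most.

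Per library, the mitochondrial members exceeded the nuclear ones in each of the 12. The mean log2(FPKM + 0.1) of the 13 mitochondrial members minus that of the 90 nuclear members that passed a filter of 0.5 FPKM was 4.25, 2.55 and 4.02 in RE libraries, 4.58, 3.31 and 4.23 in E libraries, 4.21, 4.46 and 2.23 in F libraries, and 4.00, 3.49 and 3.71 in control libraries. The group means were 3.61 ± 0.92 (RE), 4.04 ± 0.65 (E), 3.63 ± 1.22 (F) and 3.74 ± 0.26 (control; SD, n = 3 each), and all 4 groups overlapped. With only the 5 members outside the copy, the difference was 5.32 ± 0.69 in RE, 5.32 ± 0.46 in E, 5.17 ± 0.47 in F and 5.38 ± 0.66 in control libraries. These 5 gave 4.53 to 4.83 in the libraries that stood apart against 5.38 to 5.79 in the other 8, the nuclear mean differing little between them (5.26 to 5.36 against 5.20 to 5.34). As a sum of FPKM, the 5 made 0.724 to 0.900 times the nuclear total in those 4 libraries and 1.40 to 2.19 times it in the others.

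**Figure D3:**
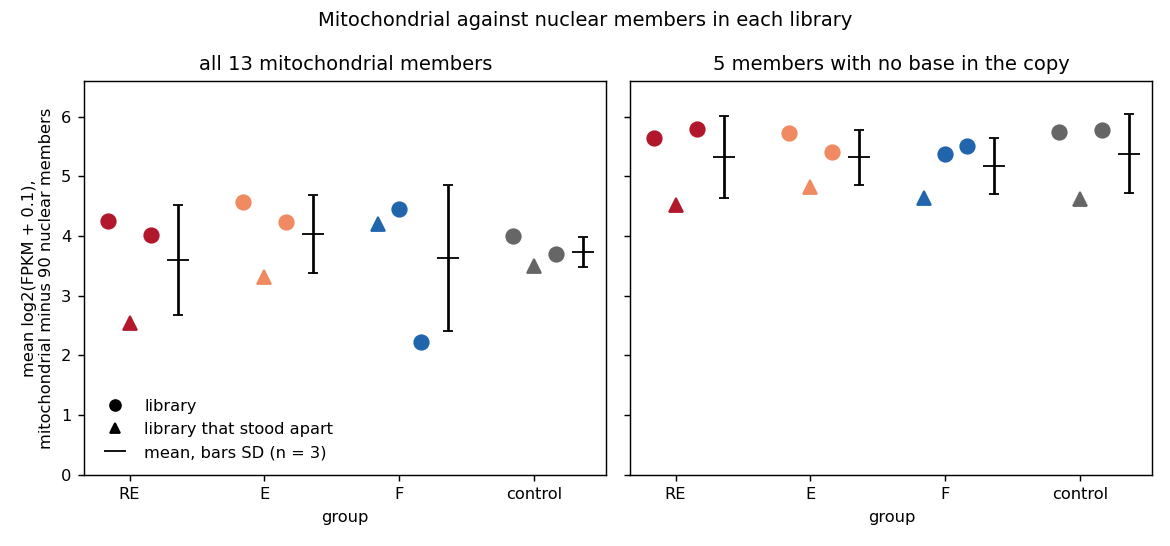
Mean log2(FPKM + 0.1) of mitochondrial members minus that of 90 nuclear members for each library (points, triangles for the 4 libraries that stood apart), with the group mean and SD beside them (n = 3). With the 5 members outside the copy (right), the triangles lie at 4.53 to 4.83 in all 4 groups and the circles at 5.38 to 5.79.

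Per length, all 93 nuclear members averaged less than each mitochondrial member except mt-Atp6 (5.06 FPKM), and their median level followed the order of the complexes. The median over members was 41.8 FPKM for complex I (43 genes, of which 29 encode accessory subunits, 7 core subunits and 7 assembly factors), 42.8 for complex II (4), 77.3 for complex III (8), 81.9 for complex IV (20) and 89.95 for complex V (15). The highest was Atp5b, the catalytic beta subunit of complex V, with 474.7 FPKM on average and 403 (F 1) to 513 (E 3) over libraries, followed in complex V by Atp5a1, its alpha subunit (239.7), and Atp5h, a stalk subunit (182.8). Complex IV was led by Cox4i1 (303.2) and Cox6c (300.5), complex III by Uqcrb (128.8), Uqcrh (123.4) and Uqcr10 (90.2), complex II by Sdha (97.8), its flavoprotein, with the iron-sulfur subunit Sdhb (58.3) and the membrane anchor Sdhd (27.3), and complex I by the accessory subunits Ndufs5 (128.8), Ndufb9 (104.2) and Ndufa3 (103.3). Over the 12 libraries the nuclear members had a median SD of 0.20 on the log2 scale, against 0.22 over all tested genes.

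Where complex IV has isoforms, the widely expressed one dominated in each library. Cox4i1 averaged 303.2 FPKM and Cox4i2, the isoform known from lung, 0.77. Cox6a1 averaged 146.7 against 3.45 for Cox6a2, the heart and muscle form, and Cox7a2 averaged 91.0 against 1.04 for Cox7a1, also a heart and muscle form. Cox6b1 averaged 234.7 against 0.96 for Cox6b2, known from testis, and Cox8a averaged 269.5 against 0.26 for Cox8b, another muscle form. Ndufa4, now counted with complex IV, averaged 139 FPKM and Ndufa4l2 0.60. Of the 93 nuclear members, 3 did not reach a mean of 0.5 FPKM and were not tested, namely Cox8b, Cox7b2 (0.22) and Cox8c, which was listed at 0 in all libraries. Cox6a2 was the highest of the restricted forms, between 2.52 (F 2) and 4.33 FPKM (RE 3).

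Promoters of nuclear members, 250 bases before the start in RefSeq (GRCm38), were searched on both strands for motifs of 3 factors linked to respiratory genes, and 76 of 93 members could be matched. The palindrome of 10 letters bound by NRF1, spelled in capitals in each window below, was found in 5 of the 76 (6.58%), against 0.877% of 27025 genes. The letters CCGGAAG, a core bound by ETS factors, were in 13 (17.1%, against 7.83%), and the YY1 core letters AAGATGG in 2 (2.63%, against 5.18%). With CGG added at the end of the YY1 letters the share of members was again 2.63%, against 0.359% of all genes, so that the order of the shares turned with the length of the motif searched. A match is a description of these letters only. The windows with the NRF1 palindrome are shown because members of complexes I, IV and V carry the same letters.
Atp5g2 (chr15:102671060-102671109, minus strand): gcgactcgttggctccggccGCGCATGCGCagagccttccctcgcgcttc
Atp5k (chr5:108434420-108434469, minus strand): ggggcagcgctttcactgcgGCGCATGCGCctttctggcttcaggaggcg
Cox6a1 (chr5:115349091-115349140, minus strand): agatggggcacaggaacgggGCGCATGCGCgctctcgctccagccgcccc
Ndufa11 (chr17:56717682-56717731, plus strand): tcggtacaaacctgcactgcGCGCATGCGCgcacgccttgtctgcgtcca
Ndufaf4 (chr4:24897950-24897999, plus strand): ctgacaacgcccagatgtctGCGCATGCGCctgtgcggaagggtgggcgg

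Of these 5, Atp5k varied most, with an SD of 0.53 on the log2 scale over the 12 libraries, against 0.20 (Atp5g2) to 0.25 (Cox6a1) for the others. Atp5k, a membrane subunit of complex V, had 17.8, 13.1 and 24.6 FPKM in RE libraries, 18.3, 9.32 and 18.9 FPKM in E libraries, 12.5, 17.8 and 22.4 FPKM in F libraries, and 29.8, 15.0 and 34.1 FPKM in control libraries. It was the nuclear member furthest below the other 8 in the libraries that stood apart (-0.86 on the log2 scale, 9.32 to 15.0 against 17.8 to 34.1 FPKM). Atp5g2, which encodes a c-ring subunit, lay at 16.8 to 25.6 FPKM in every library, and Ndufaf4, a complex I assembly factor, at 6.72 to 11.7 FPKM.

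The comparison of F with control asks what differed after fear memory was formed. No member passed an adjusted p of 0.05 with limma, of 103 tested (smallest adjusted p = 0.313), in a comparison where 0% of all 13517 genes passed. With edgeR and DESeq2 on recovered fragments 0 members were called too, beside 0.00740% and 1.15% of all genes. Unadjusted, 10 members had p under 0.05 (1 higher and 9 lower), or 9.71%, beside 7.08% of all genes (4.19% higher and 2.89% lower). Fold changes of nuclear members lay mostly below 0, in 78 of 90, with a median of -0.10 beside 0.01 over all genes, of which 51.4% lay above 0. By complex, 38 of 43 members of complex I, 3 of 4 of complex II, 7 of 8 of complex III, 15 of 17 of complex IV and 14 of 15 of complex V lay below 0. Of the 3 nuclear members outside the complexes (Atp5s, Atp5sl and Atp5l-ps1), 2 lay above 0. One of these 2 was the only member that was higher with an unadjusted p under 0.05. Groups did not overlap for 16 members (beside 12.5% of all genes). All F libraries were below all control libraries in 15 of these, mt-Co3 and 14 nuclear members (beside 5.03% of all genes), and above them in 1 (beside 7.51%). The mean of the 90 was lower in F, 5.23 ± 0.03, against 5.34 ± 0.003 in control (log2 scale, SD, n = 3).

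Ndufb7, an accessory subunit of complex I on chr8:83566671-83571626, had the smallest p. It had 28.7, 29.1 and 29.9 FPKM in F libraries, against 36.5, 33.7 and 44.1 FPKM in control libraries (log2 fold change -0.37 ± 0.10, SE, limma adjusted p = 0.313). RE libraries had 30.2, 28.8 and 29.5 FPKM and E libraries 30.8, 32.0 and 32.2 FPKM, so that all 9 shocked mice lay below the 3 controls. Ndufs7, an iron-sulfur core subunit of complex I, had 37.3, 33.4 and 36.6 FPKM in F libraries against 45.3, 52.2 and 45.4 FPKM in control libraries (-0.41 ± 0.12, limma adjusted p = 0.398). Atp5e, the epsilon subunit of the F1 part of complex V, had 47.8, 40.9 and 38.7 FPKM in F libraries against 49.4, 66.9 and 52.4 FPKM in control libraries (-0.40 ± 0.13). Uqcrh, the hinge subunit of complex III, had 97.8, 109.9 and 116.5 FPKM in F libraries against 146.8, 121.4 and 137.8 FPKM in control libraries (-0.32 ± 0.11). The F and control libraries of these 4 genes did not overlap, but with many genes tested none passed.

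Several other features moved with the F libraries. The 6 oligodendrocyte markers were below control in 6 of 6, with a summed level of 597 to 826 FPKM in F against 926 to 1189 FPKM in control libraries (median log2 fold change -0.50). The 7 striatal markers were below 0 in 7 of 7, with sums of 295 to 730 FPKM in F against 232 to 1138 FPKM in control. The 8 markers of basolateral amygdala principal neurons were above 0 in 7 of 8 (median 0.25), with sums of 1060 to 1308 FPKM in F against 956 to 1060 FPKM in control. Hypothalamic markers, of which 4 of 8 were tested and 1 lay above 0, summed to 68.6 to 165 FPKM in F against 95.2 to 190 FPKM in control, with Agrp at 0 in all F libraries and in control 2. Most of these sums was Nnat alone, at 66.0 to 152 FPKM in F and 92.9 to 161 FPKM in control. Astrocyte markers were below 0 in 6 of 6 (median -0.08), microglial markers in 5 of 6 (median -0.23, 1 with an unadjusted p under 0.05), and endothelial markers above 0 in 4 of 6 (median 0.15, 2 with an unadjusted p under 0.05). The part of these in the nuclear members' values was not tested. Without the 4 libraries that stood apart, which leaves 2 mice a group, 24 members had an unadjusted p under 0.05, 23 of them lower, beside 11.4% of all genes. With a term for those 4 libraries there were 27, of which 25 were lower, beside 11.5% of all genes, and the smallest adjusted p with limma was 0.119, for Ndufs7. The 27 included mt-Nd1, mt-Nd2, mt-Nd5 and mt-Cytb, with log2 fold changes of -0.42 to -0.51. No member passed the adjusted test in either fit.

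**Figure D4:**
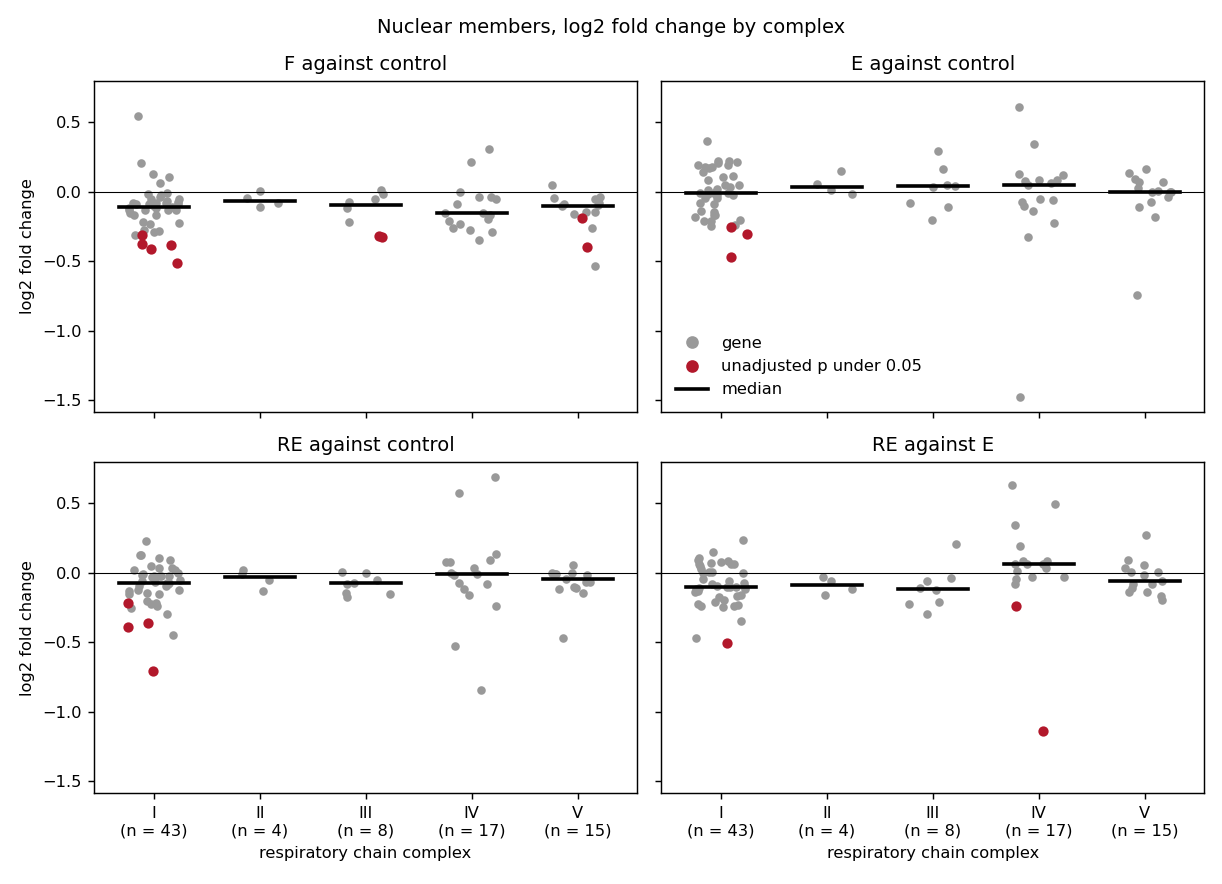
Log2 fold change of each tested nuclear member of complexes I to V in the 4 comparisons, with the median as a bar and genes with an unadjusted p under 0.05 in red. The 3 tested members outside the complexes are not drawn. In F against control, 78 of the 90 tested nuclear members lie below 0. In E against control they spread on both sides.

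The comparison of E with control asks the same after extinction. Again no member passed (smallest adjusted p with limma 0.895, beside 0% of all genes), with 0 members called by edgeR or DESeq2 (beside 0.0370% and 0.244% of all genes), and 3 members had an unadjusted p under 0.05, all lower and all of complex I, namely Ndufb11, Ndufb7 and Ndufa12 (2.91% of members, beside 5.13% of all genes and 1.35% lower). Nuclear members were balanced, 44 above and 46 below 0, with a median of -0.001, beside 57.0% of all genes above 0. Groups did not overlap for 10 members, beside 10.5% of all genes. Ndufa12, an accessory subunit of complex I, had 27.6, 25.2 and 27.5 FPKM in E libraries against 31.0, 52.9 and 31.2 FPKM in control libraries (-0.47 ± 0.19). Its control mean rested on control 2, which stood apart, and without the 4 such libraries the difference was -0.18. Ndufb2, another accessory subunit, had 50.5, 54.5 and 48.5 FPKM in E libraries against 44.6, 39.9 and 35.3 FPKM in control libraries (0.36 ± 0.17). All E libraries lay above all controls, with an unadjusted p of 0.0514 in limma's test. Without the 4 libraries that stood apart 13 members had an unadjusted p under 0.05 (beside 9.17% of all genes), 8 of them lower, and with a term for them 13 (beside 8.50%), 7 of them lower, none passing the adjusted test. Endothelial markers were above 0 in 6 of 6 (3 with an unadjusted p under 0.05), with sums of 55.6 to 70.7 FPKM in E against 37.1 to 46.3 FPKM in control. Striatal markers were above 0 in 7 of 7 (median 0.94), hypothalamic markers in 2 of 4 (median 1.90, both with an unadjusted p under 0.05), and basolateral amygdala neuron markers in 0 of 8 (2 lower with an unadjusted p under 0.05, sums of 777 to 981 FPKM in E against 956 to 1060 FPKM in control). Oligodendrocyte, astrocyte and microglial markers were above 0 in 5, 4 and 3 of 6. Their part in the members' values was not tested.

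Of RE against control, no member passed (smallest adjusted p with limma 0.191, for Ndufb7) beside 0.0666% of all genes, and 0 were called with edgeR or DESeq2 (beside 0.873% and 3.18% of all genes). An unadjusted p under 0.05 was found for 4 members, all lower and all of complex I, Ndufb7, Ndufa12, Ndufa11 and Ndufa8 (3.88% of members, beside 9.65% of all genes and 4.95% lower). Ndufa12 had 23.4, 18.1 and 27.8 FPKM in RE libraries against 31.0, 52.9 and 31.2 FPKM in control libraries (-0.71 ± 0.19, limma adjusted p = 0.199), and without the libraries that stood apart -0.29. Ndufa11, a membrane subunit of complex I, had 4.93, 6.34 and 5.55 FPKM in RE libraries against 6.91, 7.89 and 7.21 FPKM in control libraries (-0.39 ± 0.16). Of the nuclear members 66 of 90 lay below 0, with a median of -0.06 beside -0.02 over all genes, of which 45.7% lay above 0. Groups did not overlap for 9 members, beside 12.7% of all genes. Without the 4 libraries that stood apart 11 members had an unadjusted p under 0.05 (beside 14.5% of all genes), and with a term for them 10 (beside 14.7%), all lower and none passing the adjusted test. Hypothalamic markers were above 0 in 0 of 4 tested (median -0.97), with sums of 45.8 to 75.1 FPKM in RE against 95.2 to 190 FPKM in control and Pmch at 0 in all RE libraries. Most of these sums was Nnat alone, at 44.6 to 66.6 FPKM in RE and 92.9 to 161 FPKM in control. Oxt was at 0 in control 1 and control 3. Markers above 0 were 6 of 7 for striatal neurons, 5 of 8 for basolateral amygdala neurons, 6 of 6 for oligodendrocytes, 4 of 6 for microglia, and 2 of 6 each for astrocytes and endothelium. Their part was not tested.

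The comparison of RE with E asks what the reminder before extinction changed, with both groups sampled at the same stage. No member passed with limma (smallest adjusted p = 0.265) beside 0.614% of all genes, and 3 had an unadjusted p under 0.05 (2.91% of members, beside 10.4% of all genes and 6.83% lower), all lower, namely Ndufb2, Cox7b and Cox4i2. Of the nuclear members 56 of 90 lay below 0, beside 39.7% of all genes above 0, and groups did not overlap for 11 members, beside 15.6% of all genes. Ndufb2 had 32.1, 46.0 and 31.4 FPKM in RE libraries against 50.5, 54.5 and 48.5 FPKM in E libraries (-0.51 ± 0.17). The groups did not overlap, and the highest library of each was the one that stood apart. DESeq2 on recovered fragments called Ndufb2 lower, the only member that any tool or setting called (-0.42 ± 0.12, adjusted p = 0.0165). It was 1 of 103 members, beside 3.55% of all genes called by DESeq2, and edgeR called 0 members beside 1.28% of all genes. The adjusted p of Ndufb2 was 0.0706 with edgeR and 0.0646 to 0.577 over the settings of limma. Cox7b, an X-linked subunit of complex IV, had 93.2, 86.2 and 76.1 FPKM in RE libraries against 105.3, 97.9 and 97.3 FPKM in E libraries (-0.24 ± 0.09). Ndufs6, an accessory complex I subunit, had 54.1, 45.3 and 52.7 FPKM in RE libraries against 61.8, 59.4 and 56.0 FPKM in E libraries (-0.22 ± 0.10), also without overlap. Without the 4 libraries that stood apart 12 members had an unadjusted p under 0.05 (beside 17.3% of all genes), and with a term for them 8 (beside 15.5%), all lower and none passing the adjusted test. Endothelial markers were below 0 in 6 of 6 (median -1.09), with sums of 35.4 to 48.2 FPKM in RE against 55.6 to 70.7 FPKM in E, and 2 of them, Pecam1 and Flt1, were called lower (limma adjusted p = 0.0435 and 0.0361). Hypothalamic markers were below 0 in 4 of 4 tested (median -2.77, 3 with an unadjusted p under 0.05), with sums of 45.8 to 75.1 FPKM in RE against 89.5 to 135 FPKM in E. Most of these sums was Nnat alone, at 44.6 to 66.6 FPKM in RE and 73.4 to 96.1 FPKM in E. Basolateral amygdala neuron markers were above 0 in 6 of 8 (median 0.33, sums of 952 to 1150 FPKM in RE against 777 to 981 FPKM in E), and striatal, astrocyte, oligodendrocyte and microglial markers in 2 of 7, 2 of 6, 1 of 6 and 4 of 6. Their part in the members' values was not tested.

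**Figure D5:**
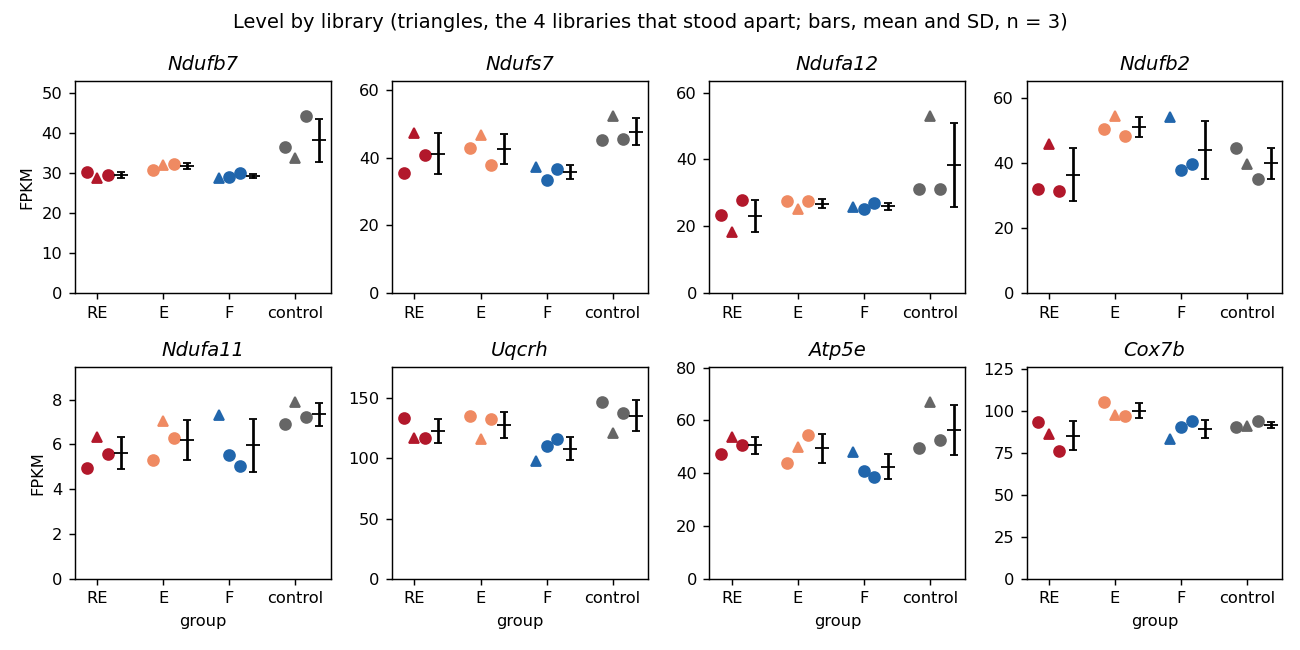
FPKM (y axis from 0) of 8 nuclear members in each library, for RE, E, F and control from left to right, with triangles for the 4 libraries that stood apart and the mean with SD beside each group (n = 3). Ndufb7 lies between 28.7 and 32.2 in all shocked mice and between 33.7 and 44.1 in controls, and Ndufb2 has its highest mean in E.

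Over all 4 groups together, limma's F-test passed no member (smallest adjusted p = 0.249, for Ndufb7) beside 0.303% of all genes. Unadjusted p-values under 0.05 were found for 3 members, Ndufb7 (0.00826), Ndufa12 (0.021) and Ndufs7 (0.0356), beside 10.5% of all genes. F, E and RE are each compared with the same 3 control mice, so their fold changes share those values.

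The libraries that stood apart differed in nuclear members too, unevenly by subunit. Of 90 nuclear members, 55 were higher in these 4 libraries, beside 9146 of all 13517 tested genes. Their median difference was 0.08 on the log2 scale, beside 0.11 over all tested genes. The groups of libraries did not overlap for 20 members (22.2%, beside 9.85% of all tested genes), 15 of them higher and 5 lower. Of all 13517 tested genes, 1147 were higher and 185 lower without overlap. Sdhb had 66.2 to 84.9 FPKM in the 4 against 44.3 to 54.8 FPKM in the other 8, a difference of 0.61, and all 4 members of complex II were higher. Cox8a had 308.8 to 357.4 against 199.2 to 266.5 FPKM. Uqcrc1, a core subunit of complex III, had 84.6 to 95.2 against 60.5 to 69.6 FPKM, and Ndufv1, the NADH-binding subunit of complex I, 74.1 to 89.9 against 49.2 to 65.1 FPKM. Lower without overlap were Atp5k, Atp5g1 (a c-ring subunit, 34.5 to 36.2 against 39.8 to 54.9 FPKM), Ndufb3, Cox6b1 and Cox6a1 (113.4 to 127.5 against 136.7 to 210.0 FPKM). Uqcrc1, Ndufv1, Atp5k, Atp5g1 and Ndufb3 were chosen after their values were seen.

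Genes that serve the chain without being named for it showed no call either. Of 39 further assembly factors, 14 genes of mitochondrial transcription and DNA maintenance, 19 of mitochondrial RNA processing, 10 regulators of mitochondrial biogenesis and 13 of the tricarboxylic acid cycle, 0 passed in any of the 4 comparisons. Cycs, cytochrome c, which carries electrons between complexes III and IV, averaged 40.2 FPKM and differed by 0.28 in E against control and -0.26 in RE against E (log2, unadjusted p = 0.031 and 0.0422). Polrmt, the mitochondrial RNA polymerase, averaged 7.18 FPKM and differed by -0.50 in RE against control (unadjusted p = 0.0268). Tfam, which packages mitochondrial DNA, and Ppargc1a, a coactivator of biogenesis, averaged 14.7 and 14.5 FPKM. Of the tricarboxylic acid cycle genes, 2 of 13 lay above 0 in F against control (beside 51.4% of all genes), 10 of 13 in E against control (beside 57.0%), 6 of 13 in RE against control (beside 45.7%) and 2 of 13 in RE against E (beside 39.7%). For the 39 assembly factors these counts were 19, 26, 24 and 14, in the same order. For the 14 genes of transcription and DNA maintenance they were 4, 6, 3 and 4. For the 19 genes of RNA processing they were 7, 12, 8 and 3, and for the 10 regulators of biogenesis 4, 7, 3 and 2.

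Back-splice junctions of members were rare. Of 13957 circRNAs, closed RNA loops counted by reads across the junction, 22 came from 14 member genes, with 151 reads in all, and 3 had at least 10 reads. The largest, from Atp5c1 (chr2:10058996-10064311), had 4, 11 and 3 reads in RE libraries, 5, 5 and 1 in E libraries, 7, 2 and 1 in F libraries, and 4, 6 and 0 in control libraries. A further 4 with 17 reads were listed on the mitochondrial chromosome. These counts are too few to compare groups.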

How the data were processed

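Basolateral amygdala RNA of 12 mice, depleted of ribosomal RNA, was read as directional paired-end libraries. The study's methods name cutadapt, HISAT2 with mouse mm10 and cuffdiff, and STAR with DCC for circRNAs. CASAVA 1.8, BWA and the human build hg19 stand in the submitters' notes on processing, although the positions in the tables are those of mouse genes. The authors deposited FPKM per gene (mRNA) and per transcript (lncRNA), and beside it an estimated count per library that was already scaled. Fragments were recovered by dividing this deposited estimated count by the value of 1 fragment (89.7 to 91.2% of values whole within 0.05). The circRNA table holds the authors' raw count of junction reads, and their log CPM and comparison columns were not used.

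Log2(FPKM + 0.1) was fitted for the 13517 genes that averaged 0.5 FPKM or more by limma 3.58.1 (moderated test with mean trend, two-sided, R 4.3.3), all 12 libraries in 1 fit, with Benjamini-Hochberg adjustment over all genes and a threshold of 0.05. Fold changes are on that scale, which understates low genes. GENCODE M21 held 106 of 106 members. Replicates are separate mice. The genome contrast is a description with no test. Nuclear copies (at least 98% identity over 200 bases, 2 found, 1 of them over members) were located with BLAST 2.17.0. Features at 6 mitochondrial loci were summed per library. Alternatives were other pseudocounts, filters and scalings, fits of the groups compared alone, edgeR 4.0.16 and DESeq2 1.42.0 on rounded recovered fragments, the libraries that stood apart left out or given a term, the replicate number as a block, and each library left out. Python 3.11.15 read the tables and drew the plots, and the limma step was tested on simulated data. Named were all mitochondrial members, the 3 highest nuclear members per complex, the 3 members per genome and comparison with the smallest p and no overlap, isoform pairs, members that failed the filter and the genes most like each genome's mean. The members and all lists were chosen with earlier results of these data known. Reads without molecular identifiers are not independent molecules. Values of genes with near-identical copies are uncertain.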

Additional observations from a re-analysis of the deposited data

Results flagged for a closer look

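Light-strand RNA of the mitochondrial chromosome, outside the comparisons above, was high in some of the libraries that stood apart. GU332589 is a minus-strand lncRNA entry listed at the locus of bases 1094 to 3842, at which mt-Nd1 is listed too. These bases bound the locus and do not place the entry within it. GU332589 held 9791 scaled fragments in F 1, against 443 in the highest control library (control 2), 22.1 times as many. It held 6499 in E 2 and 3130 in RE 4, and 41.8 to 104 in the 8 libraries that did not stand apart. AK140152, a minus-strand entry at the mt-Co1 locus, held 859 in F 1, against 53.4 in the highest control library (control 3), and 428 in RE 4 and 114 in E 2. Other minus-strand entries had other patterns, AK139402 with 2811 (F 3) to 4157 (E 2) and AK141672 with its highest value, 839, in RE 3. These values were not tested between groups.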

How the results depend on the processing

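With limma and edgeR, 0 members were called in each comparison and in the test over 4 groups under every alternative run, including each library left out (0 to 0) and locus totals in place of mitochondrial members, an alternative chosen after seeing the data. With DESeq2, 1 member was called in RE against E. Mitochondrial minus nuclear level in E against control was -0.37 with the median over members (0.30 as reported), and in RE against E 0.49 with locus totals (-0.43 as reported); the cause was not tested. Leaving out 1 library gave -0.52 to 0.60 in F against control, 0.04 to 0.67 in E against control, -0.45 to 0.40 in RE against control and -0.80 to 0.09 in RE against E, so the sign held only in E against control. Without F 3 the F difference was 0.60 and without control 1 it was 0.03. Without RE 4 the RE differences were 0.40 (control) and 0.09 (E), and without control 1 RE against control was 0.004. With only the members outside the copy, also chosen after seeing the data, the 4 differences were -0.20, -0.06, -0.06 and 0.0003. Of the alternative values of single genes, 85 moved by more than their SE, 1 passed the test (Ndufb2) and 3180 did neither. In F against control 75 to 80 of 90 nuclear members lay below 0 under other pseudocounts, scalings and tools, and 64 without control 2. In RE against E, 46 lay below 0 with edgeR and DESeq2. Deviations of log2 levels from the group means, not the levels themselves, correlated between -0.30 and 0.24 in same-numbered libraries. For RE 4 and control 2, which both stood apart, these deviations correlated at 0.37. Because the libraries that stood apart bear different numbers, these correlations cannot decide whether the numbers pair mice. With the replicate number as a block, 0 members were called in F against control and in E against control, as without it. For RE against control and RE against E, no paired analysis was possible because RE shares only 1 number with the other groups.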

Other observations

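The genes outside the members whose log2 levels correlated most with the mean of the 13 mitochondrial members over the 12 libraries were Vamp8 (Pearson's r = 0.87), Gngt2 (0.84), Hspb11 (0.84), Mrps15 (0.79) and Ltbp1 (0.79). For the mean of the 90 nuclear members they were Prkcq (0.97), Slc8a3 (0.90), Meis1 (0.87), Nacad (0.86) and Ppfia4 (0.86). These were picked as the highest of all tested genes, and the libraries share depth and the split described above, so the values are descriptions.

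AK140265, a plus-strand lncRNA entry at bases 70 to 1024 of the mitochondrial chromosome, upstream of mt-Nd1, held 3413 scaled fragments in RE 4, 4665 in E 2, 2971 in F 1 and 3064 in control 2. In the other 8 libraries it held 22485 (E 3) to 39377 (control 3), without overlap. Its range of 13.3-fold was wider than that of the messages mt-Nd1, mt-Nd2, mt-Nd5 and mt-Cytb, which were low in the same libraries. Being listed among lncRNAs does not identify the RNA at this locus, so the wider range is a description only. The libraries were depleted of ribosomal RNA, and the part of that step in the values of AK140265 was not tested.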
